A study of Microtus ochrogaster with 25 samples.

Results

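The 6 genes described here are the complex I subunit genes that lie on the heavy strand of the vole mitochondrial genome: ND1 (ENSMOCG00000000006), ND2 (ENSMOCG00000000010), ND3 (ENSMOCG00000000025), ND4L (ENSMOCG00000000027), ND4 (ENSMOCG00000000028) and ND5 (ENSMOCG00000000032). They were chosen by identifier from the 19648 genes of the deposited table. That table holds no gene names, so the names were assigned from the order of genes along the vertebrate mitochondrial genome and are not the authors'. Of the first 37 identifiers of the Ensembl series, the table holds 13, and these stand at the places that this order gives to the 13 mitochondrial protein genes. Other values bear on the same names. The rows at the places of ATP8 and ATP6, genes that overlap, held fractional values in all 25 libraries, and their sum was whole to within 0.01 in all 25. The 6 complex I rows held 0 fractional values, including those of ND4L and ND4, although the reading frames of these genes overlap too. By mean count the 6 genes ranked between 3 and 58 of all genes, and the row at the place of ND6, the light-strand gene, ranked 1693.

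The libraries came from bulk nucleus accumbens of prairie voles (Microtus ochrogaster), a socially monogamous rodent in which both parents rear the young. RNA came from a column kit that yields DNA and RNA, and mRNA was isolated with magnetic beads before a library kit that keeps the strand. Groups are named in the labels by sex and by MAN0 or MAN1, which the labels do not define. As background, published vole work uses these names for how parents were handled soon after birth of a litter, MAN0 families being moved without touching the animals and MAN1 parents being lifted by hand. There were 5 MAN1 and 7 MAN0 males, and 6 MAN1 and 7 MAN0 females. The labels give no age, strain, litter or number of animals per library. They do not say whether each library is another animal, so a p-value here speaks only of the spread among libraries, which may be technical. The index in the sample titles starts again at 1 with library 17. The 16 libraries before it are called run 1 and the 9 others run 2, which hold only 1 MAN1 male. The labels do not say what this index is, so the 2 runs are inferred from it. Library totals lay between 19882151 and 32570010 counts. The make-up of the tissue could not be checked against cell type markers without gene names.

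Complex I (NADH:ubiquinone oxidoreductase) is the entry point of electrons from NADH into the respiratory chain. It passes them to ubiquinone and pumps protons across the inner mitochondrial membrane. Most of its subunits are made from nuclear genes, while the core of its membrane arm is encoded by the mitochondrial ND genes. ND1 helps to form the ubiquinone-binding cavity. ND2, ND4 and ND5 are the antiporter-like subunits of the proton-pumping arm. ND3 carries a loop near the ubiquinone cavity, and ND4L is a small membrane subunit whose reading frame overlaps that of ND4. The heavy strand is transcribed as long polycistronic RNA, which is cut at the transfer RNAs that lie between the coding genes, and ND4L and ND4 stay together on a bicistronic messenger. The 6 genes follow each other on that transcript in the order ND1, ND2, ND3, ND4L, ND4 and ND5, with the cytochrome oxidase and ATP synthase genes between ND2 and ND3. Neurons depend on oxidative phosphorylation for most of their energy.

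Together the 6 genes took 3.75% ± 0.81 (SD, n = 25) of the counts of a library, and between 34.7% and 39.2% of the counts of the 13 mitochondrial genes. Their joint share of the library total ranged from 2.50% in MAN1 female 6 to 6.26% in MAN0 male 2. In males it averaged 3.29% ± 0.417 in MAN1 (n = 5) and 4.09% ± 0.991 in MAN0 (n = 7). In females it averaged 3.49% ± 0.86 in MAN1 (n = 6) and 3.95% ± 0.695 in MAN0 (n = 7). In either sex the MAN1 mean was the lower, and the ranges overlapped. The SD of MAN0 males rested on MAN0 male 2: without it they averaged 3.73% ± 0.291 (n = 6, 3.35% to 4.22%), against 2.82% to 3.79% in MAN1 males. The order of the means was the same within runs. In run 1 the share was 3.41% ± 0.373 in MAN1 and 4.37% ± 1.31 in MAN0 males. MAN0 male 2 is in run 1, where the other MAN0 males were at 3.35%, 3.65% and 4.22% and the MAN1 males at 2.90% to 3.79%. In run 2 the share was 2.82% in the only MAN1 male and 3.73% ± 0.129 in MAN0 males. In females it was 3.48% ± 0.757 and 3.84% ± 0.818 in run 1, and 3.49% ± 1.41 and 4.098% ± 0.625 in run 2, MAN1 first. Run 2 holds only 2 MAN1 females, at 4.49% and 2.50%, which lie on either side of the MAN0 mean. The joint share was 3.78% ± 0.879 in run 1 (n = 16) and 3.70% ± 0.719 in run 2 (n = 9), so the runs differed by much less than their spread. Counting error was small beside this spread, since the 95% Wilson interval of a single gene's share in a single library reached at most 1.41% of that share to either side. In bulk tissue, fewer cells of a type and less RNA per cell cannot be told apart. No coding lengths were at hand, so levels are compared between libraries and not between genes.

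Levels of single genes are given as CPM, counts relative to the library total after scaling of totals by the trimmed mean of M-values (TMM). ND1 lay between 8634 CPM (MAN0 male 1) and 19115 CPM (MAN0 male 2) in MAN0 males, with a median of 9911 CPM. In MAN1 males it stood at 7527, 8891, 8755, 9700.4 and 7054 CPM. The MAN1 males were at the low end, yet the ranges overlapped: MAN1 male 2, 3 and 4 lay above the lowest MAN0 male, and 5 of the 7 MAN0 males lay above every MAN1 male. In females ND1 ranged from 8120.1 to 13498 CPM in MAN0 (median 10617) and from 6465 to 12072 CPM in MAN1 (median 8401), and 4 of 6 MAN1 females were below the MAN0 mean.

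The antiporter-like subunit genes had a like order of libraries. ND2 had a median of 8781 CPM in MAN0 males (8326 to 17478) and stood at 6792, 8471, 8162, 9211 and 6462 CPM in MAN1 males. ND4 had a median of 11721 CPM in MAN0 males (10514 to 23781) and stood at 9592, 11475, 11144, 11874 and 8800.5 CPM in MAN1 males. ND5 had a median of 3809 CPM in MAN0 males (3435 to 7321) and stood at 3129.9, 3614, 3603, 3669 and 2856 CPM in MAN1 males. For each of these 3 genes MAN1 male 1 and MAN1 male 5 were the lowest males of their group, and both lay below every MAN0 male. In females the ranges overlapped over most of their length, and 4 of 6 MAN1 females were below the MAN0 mean of each gene: ND2 spanned 7204 to 11604 CPM in MAN0 and 5781 to 10465 CPM in MAN1, ND4 10224 to 15717 and 8429.9 to 14541 CPM, and ND5 2846 to 4952 and 2720.2 to 4791 CPM.

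The genes of the small subunits were measured by fewer reads. ND3 had a median of 1185 CPM in MAN0 males (1043 to 2213) and stood at 927, 1120.0, 960.4, 1206 and 871 CPM in MAN1 males. ND4L had a median of 1425 CPM in MAN0 males (1239.8 to 2953) and stood at 1196, 1402, 1429.5, 1567 and 1078 CPM in MAN1 males. Of the 5 MAN1 males, 4 were below the MAN0 male median for ND3 and 3 for ND4L, the smallest such number among the 6 genes. In females ND3 spanned 1002 to 1989 CPM in MAN0 and 868 to 1506 CPM in MAN1, and ND4L 1101 to 1894 and 1040.5 to 1732 CPM. For every one of the 6 genes MAN1 female 6 had the lowest value of all 25 libraries and MAN0 male 2 the highest.

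**Figure D1:**
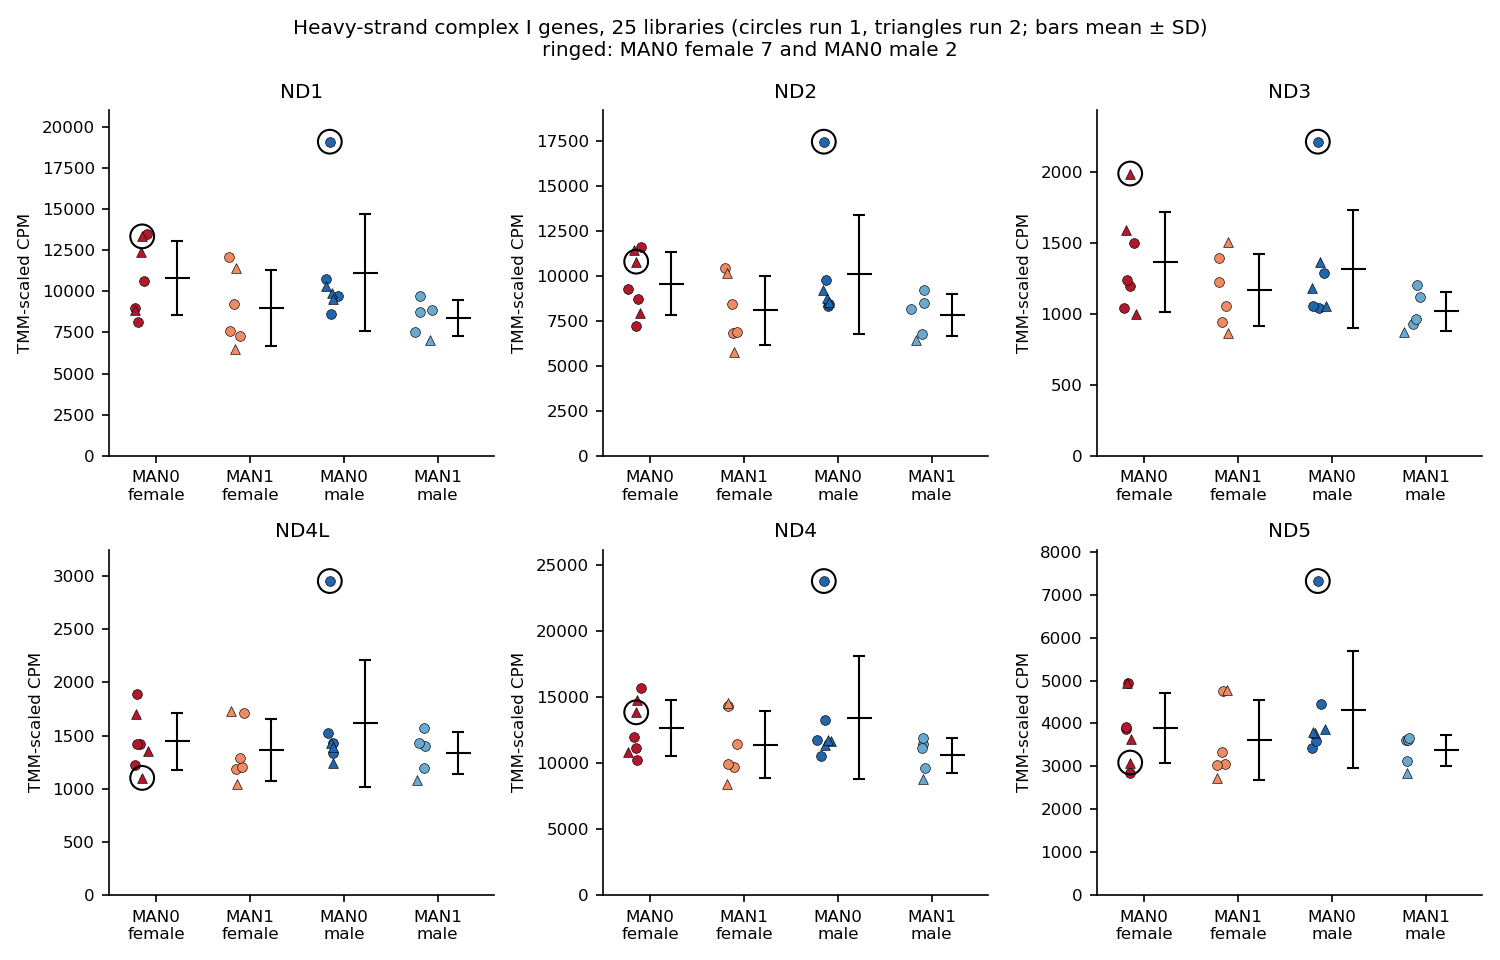
Level of each of the 6 genes in TMM-scaled CPM (vertical axis, from 0) in each library of the 4 groups (horizontal axis), with circles for run 1, triangles for run 2 and the group mean ± SD at the right of each group. The ringed MAN0 male 2 is above all other libraries in each panel (ND1: 19115 CPM), and the ringed MAN0 female 7 is high for ND3 (1989 CPM) and lowest of its group for ND4L (1101 CPM).

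The library MAN0 male 2 stood apart in the amount of all 6 genes. Its level was 1.95 times the mean of the other 6 MAN0 males for ND1, 1.97 times for ND2, 1.90 times for ND3, 2.12 times for ND4L, 2.03 times for ND4 and 1.92 times for ND5. The other 6 MAN0 males were close to each other, at 9817 ± 727 CPM (SD) for ND1 and 11710.4 ± 896 CPM for ND4. In the same library the 13 mitochondrial genes took 17.8% of the counts, and the TMM factor was 0.859, whereas it lay between 0.967 and 1.04 in the others. A factor below 1 raises the CPM of a library, and on the share of the library total, which uses no factor, ND1 in MAN0 male 2 was at 1.64% against a median of 1.002% in MAN0 males. The part that library composition has in this was not tested.

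The make-up of the 6 genes, each gene's percent of their joint counts, uses no scaling between libraries and was close to constant. Over 25 libraries ND1 made up 26.4% ± 1.05 (SD), ND2 23.9% ± 0.546, ND3 3.27% ± 0.327, ND4L 3.87% ± 0.342, ND4 32.3% ± 0.745 and ND5 10.2% ± 0.793. MAN0 male 2, with the highest amounts, had an ordinary make-up, at 26.2% for ND1, 3.04% for ND3, 4.05% for ND4L and 10.05% for ND5 (counts not corrected for gene length). Its amount was high, and the proportions were those of the other libraries.

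MAN0 female 7 showed the reverse, with amounts inside the range of the other libraries and a make-up outside it. There ND1 was at 30.2% and ND3 at 4.50%, above the highest of the other 24 libraries (27.6% and 3.603%). ND4L was at 2.49% and ND5 at 6.99%, below the lowest of the others (3.485% and 9.28%). ND2 at 24.5% and ND4 at 31.3% were inside the range of the other libraries. A share of the 6 genes rises where others of the 6 are low, and the base mattered for ND1 and ND4. As a percent of all 13 mitochondrial genes, ND1 was at 10.5% and inside the range of the other libraries, and ND4 at 10.9% was below all of them (median 11.9%). On either base ND3 was above, and ND4L and ND5 were below, every other library, and ND2 was inside the range. ND4L and ND4, which share a messenger, stood apart from their usual ratio, with a log2 ratio of ND4L to ND4 counts of -3.65 in MAN0 female 7 and of -3.05 ± 0.055 in the other 6 MAN0 females. The log2 ratio of ND5 to ND1, the last and first of the 6 on the strand, was -2.11 in this library and -1.37 ± 0.11 in the other 6 MAN0 females. Among the other mitochondrial genes, also as a percent of the 13, ATP8 was below every other library, at 1.37% with a median of 1.75%, and its overlapping neighbour ATP6 was above every other, at 11.6% with a median of 10.5%. COX3, a cytochrome oxidase subunit gene next to ATP6, was above every other library too, at 12.9% with a median of 11.98%. CYTB, the cytochrome b gene that lies beyond ND5 on the strand, was at 9.42% with a median of 8.87%, inside the range of the others. The low values of ND4L, ND4 and ND5 thus did not go on to CYTB. This library had the smallest total of the 25. Whether depth or RNA quality has a part in its make-up was not tested.

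**Figure D2:**
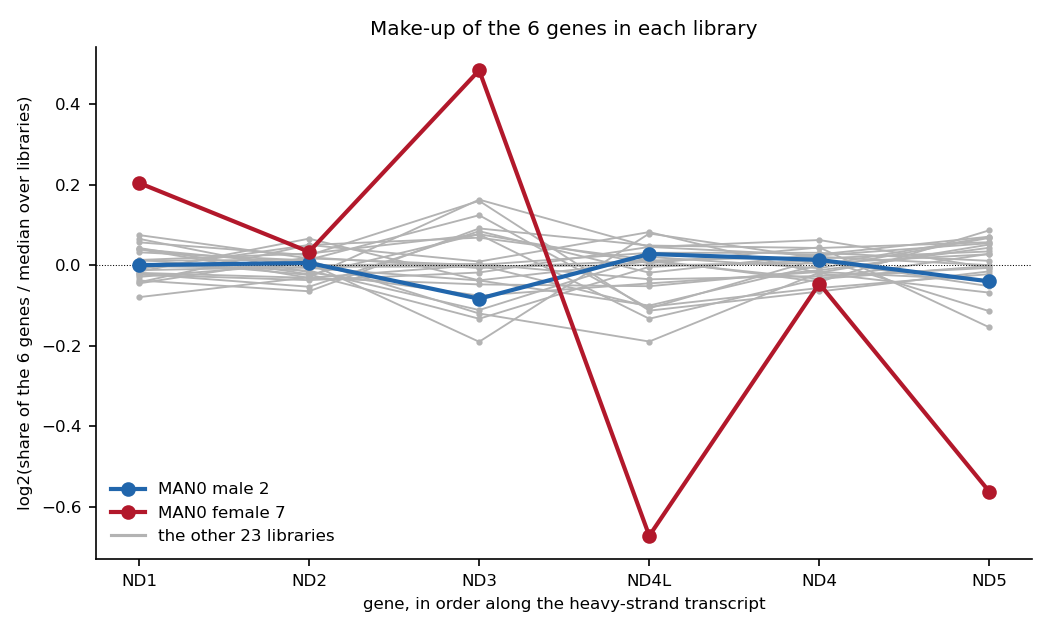
Each line is 1 library, and the vertical axis is the log2 of a gene's share of the 6 genes over the median share of the 25 libraries, with the genes in their order along the heavy strand on the horizontal axis. MAN0 female 7 leaves the grey lines of the other 23 libraries on this 6-gene base at ND1 and ND3 (above) and at ND4L and ND5 (below), while MAN0 male 2 stays within it.

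Without MAN0 female 7 the group means of the make-up were close together. ND1 averaged 25.8% in MAN1 and 26.6% in MAN0 males, and 25.9% and 26.6% in females. ND4L averaged 4.098% in MAN1 and 3.82% in MAN0 males, and 3.95% and 3.87% in females. ND5 averaged 10.4% in MAN1 and 10.3% in MAN0 of either sex. Between the highest and lowest group mean there were 1.07 times for ND4L, 1.03 times for ND1 and 1.01 times for ND5, with no test made. The largest such ratio of the 6 genes was 1.08 for ND3, at 3.38% in MAN1 females and 3.13% in MAN1 males. With MAN0 female 7 included, the MAN0 female mean was 3.67% ± 0.543 for ND4L and 9.84% ± 1.37 for ND5, the lowest of the 4 groups for both. Run 1 and run 2 averaged 3.97% and 3.84% for ND4L without that library.

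The 6 genes varied together over the libraries. Over 25 libraries Pearson's r of log2 CPM lay between 0.696 (ND3 and ND4L) and 0.987 (ND1 and ND2), and Spearman's rho between 0.665 and 0.979. All 15 pairs passed after Benjamini-Hochberg adjustment over 15 (permutation test, 100000 resamples, largest adjusted p = 0.00025 for r and 0.00038 for rho, 2-sided). The share of passing pairs among all genes was not computed, so counts of passing pairs are not shown to be particular to the 6. The CPM levels share the library and its scaling factor. For the lowest pair r was 0.644 on the share of the library total and 0.711 on counts relative to the genes outside mitochondria. Taken as deviations from group and run means, the lowest r was 0.732. Without the 2 libraries farthest from the median of the first gene of each pair, r lay between 0.666 and 0.978. In run 1 it lay between 0.931 and 0.988. In run 2 it lay between 0.448 and 0.989, and there 10 of 15 pairs passed (exact permutation test over 9 libraries, largest adjusted p = 0.223). The low values rested on MAN0 female 7: without it r lay between 0.922 and 0.990, with 0.922 for ND3 and ND4L. The lowest r was 0.530 without MAN0 male 2.

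**Figure D3:**
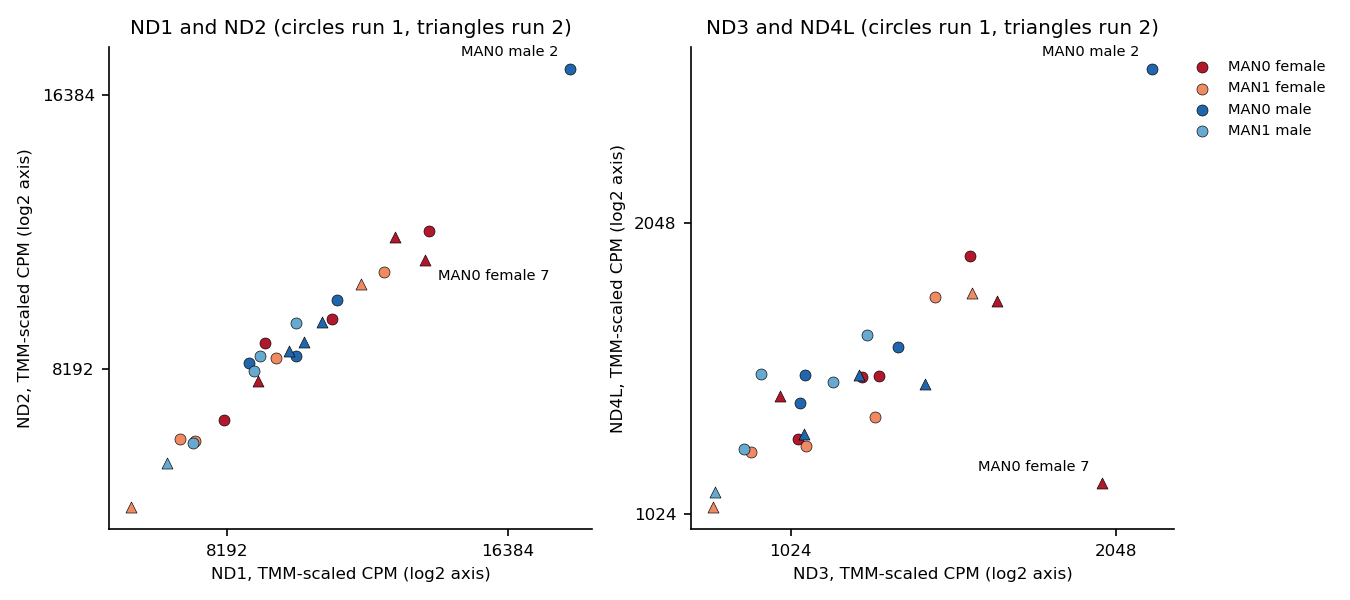
Levels of a closely matched pair (ND1 and ND2, r = 0.987) and of the least matched pair (ND3 and ND4L, r = 0.696) in the 25 libraries, in TMM-scaled CPM on log2 axes, coloured by group. MAN0 female 7 lies a little below the common line at the left and far below it at the right.

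In males, the sex that the series title names, the estimates of all 6 genes were lower in MAN1 than in MAN0, and none passed. The log2 difference was -0.43 (SE 0.19) for ND1, -0.39 (SE 0.18) for ND2, -0.37 (SE 0.20) for ND3, -0.31 (SE 0.18) for ND4L, -0.37 (SE 0.18) for ND4 and -0.38 (SE 0.19) for ND5, or 1.24- to 1.35-fold. By edgeR's quasi-likelihood test 0 of 6 passed at a Benjamini-Hochberg adjusted p under 0.05 (adjusted p = 0.599 for each), and 0% of the 14843 genes tested did. DESeq2 and limma-voom also called 0 of the 6. At an unadjusted p under 0.05 there were 2 of the 6 by edgeR (ND1 and ND2), 4 by DESeq2 and 1 by limma-voom. Of all genes the share was 7.34% by edgeR, 8.8% by DESeq2 and 6.0% by limma-voom. By edgeR 4.95% had a lower and 2.38% a higher estimate in MAN1. The estimate was below 0 for 6 of 6 and for 48.6% of all genes, whose median was 0.0072. The 6 genes vary together, so their directions are not independent observations.

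The size of the male difference depended on MAN0 male 2. Without it the median over the 6 genes moved from -0.38 to -0.18 on the log2 scale, ND1 to -0.23, ND4L to -0.099 and ND5 to -0.20. By edgeR 0 of the 6 then had an unadjusted p under 0.05. The share of all genes fell too, from 7.34% to 2.83%. Without MAN0 male 2 and MAN0 female 7 the median was -0.19. On the share of the library total the 6 genes together were at 3.29% in MAN1 and 4.09% in MAN0 males. With single libraries left out, the difference lay between -0.925 and -0.44 percentage points, the last without MAN0 male 2. The direction was the same within runs, with a median of -0.43 in run 1 alone and -0.45 in run 2 alone. Run 1 holds MAN0 male 2, and no fit of run 1 left it out, so its median does not speak to that dependence. In run 2, 1 MAN1 male stood against 3 MAN0 males.

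In females the estimates of the 6 genes were again below 0 for MAN1 against MAN0, as for 48.9% of all genes, and none passed. No gene had ranges that did not overlap between MAN1 and MAN0 females among the 6, against 0.0808% of all genes. The log2 difference was -0.28 (SE 0.18) for ND1, -0.26 (SE 0.17) for ND2, -0.23 (SE 0.18) for ND3, -0.10 (SE 0.17) for ND4L, -0.16 (SE 0.17) for ND4 and -0.12 (SE 0.17) for ND5. The first 3 genes of the order had larger estimates than the last 3. The genes vary together over the same libraries, so these SEs do not measure the error of a distance between genes. That distance was not tested. By edgeR, DESeq2 and limma-voom 0 of 6 passed (Benjamini-Hochberg adjusted p = 0.988 for every member in edgeR's quasi-likelihood test; 0% of all genes), and 0 of 6 had an unadjusted p under 0.05 by any of the 3, against 2.46% of all genes by edgeR (1.4% lower and 1.06% higher in MAN1). Without MAN0 female 7 this order did not hold, with -0.21 for ND1, -0.11 for ND3, -0.14 for ND4L and -0.16 for ND5. The median was -0.14 in run 1 alone and -0.27 in run 2 alone, where 2 MAN1 females stood against 3 MAN0 females. Leaving out MAN1 female 5 moved the median from -0.20 to -0.32 with 2 of 6 (ND1 and ND2) at an unadjusted p under 0.05, against 2.83% of all genes, and leaving out MAN1 female 6 moved it to -0.12.

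Averaged over the sexes, the median log2 difference of the 6 genes between MAN1 and MAN0 was -0.28, from -0.35 (SE 0.13) for ND1 to -0.21 (SE 0.12) for ND4L, and 6 of 6 estimates were below 0, against 48.7% of all genes. None of the 6 passed by edgeR (Benjamini-Hochberg adjusted p between 0.413 and 0.444; 0% of all genes), DESeq2 or limma-voom. At an unadjusted p under 0.05 there were 4 of 6 by each of the 3 tools, namely ND1, ND2, ND3 and ND4 by edgeR. Of all genes the share was 12% by edgeR (6.9% lower and 5.07% higher in MAN1), 13.3% by DESeq2 and 11.3% by limma-voom. The median was -0.18 when MAN0 male 2 alone was left out. Without MAN0 male 2 and MAN0 female 7 the median was -0.17. By edgeR 0 of the 6 then had an unadjusted p under 0.05, against 7.23% of all genes.

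The rearing by sex interaction asks whether the difference between MAN1 and MAN0 was another in males than in females, and none of the 6 genes passed. The estimates lay between -0.26 (SE 0.25) for ND5 and -0.13 (SE 0.25) for ND2, the male difference being the more negative in 6 of 6, against 47.6% of all genes. The 95% interval of the interaction of ND1 reached from -0.69 to 0.39 on the log2 scale, so neither a like response nor a sizeable difference between the sexes is shown. By edgeR, DESeq2 and limma-voom 0 of 6 passed or had an unadjusted p under 0.05, with a Benjamini-Hochberg adjusted p of 0.9999 for every member in edgeR's quasi-likelihood test. Of all genes 0% passed, and an unadjusted p under 0.05 was reached by 0.667% (0.492% with a negative and 0.175% with a positive interaction). Without MAN0 male 2 the median over the 6 genes was 0.017, against -0.18 with it.

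Males and females, averaged over MAN0 and MAN1, differed by less than their SE for all 6 genes. The log2 difference of males against females was -0.041 (SE 0.13) for ND1, -0.00043 (SE 0.12) for ND2, -0.13 (SE 0.13) for ND3, 0.041 (SE 0.12) for ND4L, -0.024 (SE 0.12) for ND4 and 0.013 (SE 0.13) for ND5. By edgeR 0 of 6 passed, against 0.0135% of all genes, and 0 of 6 had an unadjusted p under 0.05 by edgeR, DESeq2 or limma-voom, against 2.42% of all genes (1.56% lower and 0.862% higher in males). The estimate was below 0 for 4 of 6, and for 49.8% of all genes. The 95% interval of ND1 reached from -0.31 to 0.23. The direction was not the same in the runs: the median of the 6 genes was 0.12 in run 1 alone and -0.26 in run 2 alone, and the difference between these values was not tested.

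Run 2 and run 1 differed little for the 6 genes, with group in the model. The log2 difference of run 2 against run 1 was -0.081 (SE 0.14) for ND1, -0.11 (SE 0.13) for ND2, -0.0024 (SE 0.14) for ND3, -0.20 (SE 0.13) for ND4L, -0.12 (SE 0.13) for ND4 and -0.11 (SE 0.13) for ND5. By edgeR 0 of 6 passed (0% of all genes), and 0 of 6 had an unadjusted p under 0.05 by edgeR, DESeq2 or limma-voom, against 3.86% of all genes (1.94% lower and 1.92% higher in run 2). The estimate was below 0 for 6 of 6, and for 52.5% of all genes. Without MAN0 male 2 and MAN0 female 7 ND4L was at -0.056 and the median of the 6 at -0.029.

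**Figure D4:**
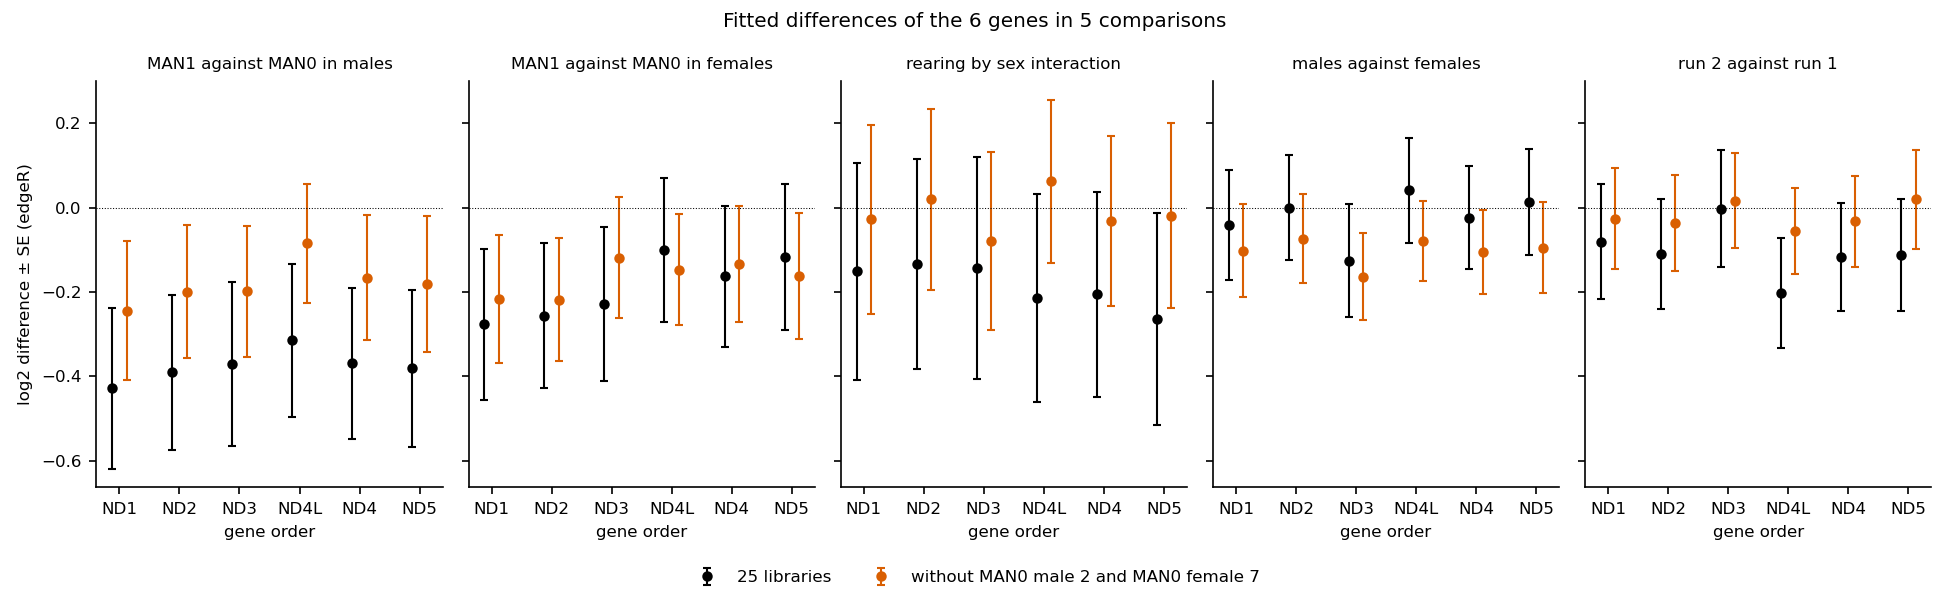
Log2 difference ± SE from edgeR (vertical axis) of the 6 genes in their order along the heavy strand (horizontal axis) in 5 comparisons, with all 25 libraries (black) and without MAN0 male 2 and MAN0 female 7 (orange). All 6 genes are below 0 in both rearing comparisons with either set of libraries, and in males the estimates are nearer to 0 without the 2 libraries (ND1 at -0.24 in place of -0.43).

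The other 7 mitochondrial protein genes had estimates below 0 for MAN1 against MAN0 in both sexes. In MAN1 against MAN0 males COX1, which follows ND2 on the heavy strand and encodes the catalytic subunit of cytochrome oxidase, had a log2 difference of -0.42 (SE 0.19), and CYTB, which follows ND5 and encodes the cytochrome b subunit of complex III, one of -0.37 (SE 0.19). ND6, the complex I gene of the light strand, had the largest of the 13, at -0.62 (SE 0.22), and was at -0.37 without MAN0 male 2. Its ranges did not overlap between MAN1 and MAN0 males, as for 1.74% of all genes and for 0 of the 6 heavy-strand genes. The gap was narrow, from 119.4 CPM in the highest MAN1 male to 120.8 CPM in the lowest MAN0 male. By edgeR's quasi-likelihood test none of the 7 passed in males, where the Benjamini-Hochberg adjusted p was 0.599 for all. In females COX1 was at -0.18 (SE 0.18), CYTB at -0.20 (SE 0.18) and ND6 at -0.24 (SE 0.20).

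Outside mitochondrial genes, the gene most like the 6 in its deviations from group and run means over 25 libraries was ENSMOCG00000012284 (r = 0.938 with their mean deviation, 57.5 to 95.5 CPM), followed by ENSMOCG00000016655 (r = 0.923, 185 to 336 CPM). The most opposite were ENSMOCG00000020547 (r = -0.926, 43.1 to 64.9 CPM) and ENSMOCG00000005881 (r = -0.918, 59.3 to 88.6 CPM). They were picked as the extremes of 14830 genes, and all share library scaling with the 6, so r is given as a description. Against the mean of the other 5 members, a member's own r was 0.991 for ND4, 0.990 for ND2, 0.969 for ND1, 0.904 for ND5, 0.898 for ND4L and 0.882 for ND3. CYTB had r = 0.971 and COX1 r = 0.950 with the mean of the 6, and ND6 r = 0.839.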

How the data were processed

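RNA of bulk nucleus accumbens was measured in 25 libraries of 4 groups. The deposited table holds estimated counts per gene for 19648 Ensembl identifiers, as deposited by the authors. The submitters' processing notes name Trim Galore, MultiQC and kallisto without their roles, and no source used here gives versions, genome build, annotation or strand setting. Some values are fractional, as reads shared between ATP8 and ATP6 show, but those of ND4L and ND4 were whole in every library. Estimated counts were rounded before tests. All 25 columns were matched to samples by the library name in the title, and 0 columns were left unmapped. Depth was 19882151 to 32570010 counts.

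The filterByExpr rule (minimum count 10) kept 14843 genes. Group means and run were fitted to all libraries with edgeR 4.0.16 (R 4.3.3, TMM, quasi-likelihood), with Benjamini-Hochberg adjustment over the genes kept and a threshold of 0.05. An SE is the log2 difference over the root of its F statistic, and 95% intervals use 20 residual degrees of freedom. DESeq2 1.42.0, limma 3.58.1 (voom), other scalings and filters, single runs and each library left out were alternatives. The procedure was run on simulated counts with known changes. Its recovery is not given here, so how small a difference it can find is not stated. No 2 libraries of a group agreed within sampling noise (lowest chi-square per degree of freedom 10.9 over 67 pairs).

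The members and lists were chosen with earlier results of these data known. The genes named are the 6 members, COX1, CYTB and ND6 of the 7 other mitochondrial genes, and the 2 most alike and 2 most opposite genes outside them. ATP8, ATP6 and COX3 are named for the make-up of MAN0 female 7, chosen after their values were seen. Lists of nuclear complex I genes and cell type markers could not be used, since 0 identifiers matched the name table (RefSeq, MicOch1.0). Each share has counting error only in its interval, as the labels name no molecular identifiers.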

Additional observations from a re-analysis of the deposited data

Results flagged for a closer look

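A library was set apart where its distance to the nearest library of its group, over the range of the group, passed Dixon's 95% value, in 48 tests of the 6 genes (CPM and percent of the 6 genes, 4 groups), of which 10 passed. About 1 in 20 groups passes by chance, and the 6 genes vary together, so these are not 10 separate observations. In CPM, MAN0 male 2 was set apart for all 6 genes, at 19115 (ND1), 17478 (ND2), 2213 (ND3), 2953 (ND4L), 23781 (ND4) and 7321 (ND5), with the next MAN0 male at 10747, 9763, 1364, 1522, 13277 and 4452. In percent of the 6 genes, MAN0 female 7 was set apart at 4.50 for ND3, 2.49 for ND4L and 6.99 for ND5, the nearest MAN0 females being at 3.39, 3.62 and 9.28. MAN1 male 3 was set apart for ND3 at 2.82 percent, with the nearest MAN1 male at 3.18.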

How the results depend on the processing

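Under all alternatives 0 of the 6 genes passed in any of the 6 comparisons. The estimates of all 6 stayed below 0 for MAN1 against MAN0 in males, females and averaged over sexes. Their median lay between -0.449 and -0.182 in males, -0.316 and -0.118 in females and -0.352 and -0.166 averaged. Scaling without the 13 mitochondrial genes gave a median of -0.394 in males. In females single genes came close to 0, at the nearest -0.0013 for ND4L and -0.034 for ND5. The number of the 6 with an unadjusted p under 0.05 moved between 0 and 5 in males, 0 and 2 in females and 0 and 6 averaged, while the share of all genes moved between 1.61% and 16.3%, 1.57% and 4.14%, and 3.19% and 16.8%. Of all genes, DESeq2 called 9 averaged over sexes and 7 between runs, and edgeR on run 2 alone called 3 averaged, where edgeR on all libraries called 0. The replicate number in place of run as a factor (the replicate block) gave medians of -0.365 in males, -0.164 in females and -0.268 averaged. It called 0 of the 6 genes, left 0 in males and 2 averaged at an unadjusted p under 0.05 (4.76% and 7.11% of all genes), and called 1 gene in place of 2 between the sexes. Deviations of same-numbered libraries had r over 0.1 in 0 of 5 pairs of MAN0 and MAN1 males, 3 of 6 of MAN0 and MAN1 females, 6 of 7 of MAN0 females and males (0.0404 to 0.486) and 3 of 5 of MAN1 females and males. Not every pair passed 0.1 in any of these, so the numbers were not taken to pair libraries, although MAN0 females and males came close. This rule cannot show that libraries are unpaired, and the main fit treats them as independent.

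Some differences smaller than their SE changed sign, and the cause was not tested. Not all were near 0 with all 25 libraries: the interaction was -0.13 for ND2 and -0.21 for ND4L. For males against females the changed values were 0.086 (ND1), 0.13 (ND2), 0.019 (ND3) and 0.12 (ND4) in run 1 alone. In run 2 alone they were -0.20 (ND4L) and -0.21 (ND5). For ND2 they were 0.00046 with RLE, 0.00046 with DESeq2, 0.0028 with limma-voom and 0.013 with no run term. Without MAN0 male 2 and MAN0 female 7 they were -0.079 (ND4L) and -0.095 (ND5) for sex, 0.020 (ND2) and 0.062 (ND4L) for the interaction, and 0.016 (ND3) and 0.019 (ND5) for run. ND3 between runs was 0.022 with library totals alone. Leaving out single libraries gave, for sex, -0.127 to 0.0124 (ND1), -0.087 to 0.0451 (ND2), -0.0527 to 0.0976 (ND4L), -0.114 to 0.0252 (ND4) and -0.0691 to 0.0705 (ND5). For the interaction it gave -0.228 to 0.0372 (ND1), -0.204 to 0.0562 (ND2) and -0.276 to 0.0452 (ND3), and for run -0.16 to 0.0161 (ND1) and -0.0873 to 0.0953 (ND3). The lowest pairwise r, 0.696, was 0.448 in run 2 alone (exact permutation, adjusted p = 0.223) and between 0.53 and 0.922 without MAN0 male 2 or MAN0 female 7, choices made after seeing the data. The alternative on coding length was not run, since no lengths were at hand.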
